A study of Mus musculus with 8 samples.

Results

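The 31 genes described here encode proteins of the lysosome and the factors that control their transcription. They were taken as a list of gene symbols and found in the deposited table through their Ensembl identifiers. All 31 were present among 25367 genes, and all 31 passed the filter on low counts that kept 15095 genes for testing, with 319 to 92732 counts per member and library. By role the list holds 6 cysteine and aspartic cathepsins, 2 serine proteases, 5 glycosidases, 6 genes of lipid handling and protein cofactors, 6 membrane proteins, 4 proton pump genes and 2 transcription factors.

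Lysosomes are acidic compartments in which hydrolases break down proteins, glycans, lipids and nucleic acids that arrive by endocytosis, phagocytosis or autophagy. A vacuolar ATPase in the lysosomal membrane pumps protons into the lumen, and heavily glycosylated membrane proteins shield the membrane from the enzymes. The transcription factors TFEB and TFE3 bind an E-box element known as CLEAR in the promoters of many lysosomal genes, and enter the nucleus when the kinase complex mTORC1 on the lysosomal surface is inactive.

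RNA-seq was performed on group 2 innate lymphoid cells (ILC2s), lymphocytes of mucosal tissue that carry no antigen receptor and release IL-5 and IL-13. Labelled wild type, the cells came by sorting from large intestines of C57BL/6 animals. They were expanded for 5 days in complete IMDM that held 10 ng/mL each of IL-33, IL-25, IL-7 and IL-2. In 4 libraries the cells then received SC-57461A, an inhibitor of leukotriene A4 hydrolase, the enzyme that produces leukotriene B4, for 16 h, and in the other 4 libraries they received vehicle. All 8 libraries thus share the cytokine mixture, and the labels leave unstated whether each replicate was its own animal or culture. Every p-value below therefore reflects library-to-library spread, which may be technical.

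Total counts were 47376196 to 52564876 per SC-57461A library and 50313937 to 71155654 per vehicle library. A gap in summed FPKM (fragments scaled to gene length and library total) parts the libraries into 2 sets, each with both treatments. Set B holds SC-57461A replicates 1 and 4 and vehicle replicates 3 and 4. Set A holds SC-57461A replicates 2 and 3 and vehicle replicates 1 and 2. Genes whose longest transcript is under 1000 bases took 5.78% to 7.14% of the counts in set B and 10.9% to 13.1% in set A. ILC2 markers (12 genes, among them Gata3, Il1rl1, Il5 and Il13) summed to 14389 to 15052 CPM (counts scaled to library total) in SC-57461A libraries and 13188 to 14064 in vehicle libraries of set B, and to 16415 to 16746 and 15787 to 16153 in those of set A. Markers of macrophages and monocytes (13 genes) summed to 0.512 to 0.739 CPM in SC-57461A and 0.293 to 0.323 CPM in vehicle libraries of set B, where Lyz2, Csf1r, C1qa, C1qb and C1qc had a count of 0. In set A they summed to 19.8 to 38.5 CPM in SC-57461A and 21.3 to 35.0 CPM in vehicle libraries. Macrophage transcripts were thus near 0 in set B and low in set A, with overlapping ranges of the treatments in set A. Epithelial markers (10 genes) summed to 12.6 to 15.9 CPM in SC-57461A and 18.2 to 20.6 CPM in vehicle libraries of set B, and to 49.3 to 58.7 and 17.1 to 29.2 CPM in those of set A. Of 7 epithelial markers tested, Krt8, Krt19 and Muc2 were higher with SC-57461A in the edgeR model with library set described below (adjusted p = 0.0453, 0.0204 and 0.000962) and none with treatment alone, and Krt8 and Krt19 had a count of 0 in every set B library. Of the 12 ILC2 markers, the same edgeR model called Il5 and Id2 higher (adjusted p = 0.0382 and 0.0268) and Gata3 lower (adjusted p = 0.0498). With treatment alone it called none of them. Because macrophages and epithelial cells also carry lysosomes, the values of the members that the results turn on are given in both sets. In bulk RNA, fewer cells of a type and less RNA per cell cannot be told apart.

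The promoters of the members were searched for the letters that TFEB and TFE3 recognise, since these sequences show which members carry the element. RefSeq promoters (GRCm38.p6, the assembly behind mm10), which run from 250 bases before to 50 bases after each listed transcript start, were found for 28 of the 31 members by symbol; Asah1, Ctsb and Atp6v1h had no entry. The 6-letter E-box core CACGTG occurred in 10 of the 28 members (35.7%), beside 8.09% of all 27025 genes with a promoter entry and 11.6% of the 10379 tested genes with one. The 8-letter core TCACGTGA, which contains the shorter motif, occurred in 6 of the 28 members (21.4%), beside 1.12% of all genes and 2.19% of the tested genes. Each motif is its own reverse complement, so that one scan covers both strands, and a gene was counted when any of its listed promoters held the motif. A match describes letters in this window and is no evidence of binding.

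The 6 promoters with the 8-letter core are printed in order of transcript level, with the core in capitals, because they hold the longer match to the element of TFEB and TFE3. Ctsd lies at chr7:142387778-142388077 (minus strand), Atp6v0d1 at chr8:105566015-105566314 (minus strand), Ctsa at chr2:164833523-164833822 (plus strand), Atp6v1a at chr16:44139210-44139509 (minus strand), Mcoln1 at chr8:3500269-3500568 (plus strand) and Gla at chrX:134600956-134601255 (minus strand).
Ctsd: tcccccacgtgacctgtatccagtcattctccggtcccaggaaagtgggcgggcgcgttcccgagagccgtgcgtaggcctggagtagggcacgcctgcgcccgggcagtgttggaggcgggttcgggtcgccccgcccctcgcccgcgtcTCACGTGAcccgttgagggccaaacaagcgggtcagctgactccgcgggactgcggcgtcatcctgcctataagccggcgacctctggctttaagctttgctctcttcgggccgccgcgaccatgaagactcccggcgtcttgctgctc
Atp6v0d1: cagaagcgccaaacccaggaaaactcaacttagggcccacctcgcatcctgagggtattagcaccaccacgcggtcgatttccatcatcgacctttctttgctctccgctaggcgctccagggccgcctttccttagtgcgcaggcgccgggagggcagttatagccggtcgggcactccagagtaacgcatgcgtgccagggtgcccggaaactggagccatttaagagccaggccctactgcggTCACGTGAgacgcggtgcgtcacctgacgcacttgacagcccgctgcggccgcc
Ctsa: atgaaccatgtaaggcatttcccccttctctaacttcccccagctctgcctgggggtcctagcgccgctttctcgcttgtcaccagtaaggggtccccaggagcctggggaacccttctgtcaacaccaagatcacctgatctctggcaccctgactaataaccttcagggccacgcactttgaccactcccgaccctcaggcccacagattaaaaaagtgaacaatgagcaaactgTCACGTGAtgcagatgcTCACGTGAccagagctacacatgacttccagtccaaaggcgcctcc
Atp6v1a: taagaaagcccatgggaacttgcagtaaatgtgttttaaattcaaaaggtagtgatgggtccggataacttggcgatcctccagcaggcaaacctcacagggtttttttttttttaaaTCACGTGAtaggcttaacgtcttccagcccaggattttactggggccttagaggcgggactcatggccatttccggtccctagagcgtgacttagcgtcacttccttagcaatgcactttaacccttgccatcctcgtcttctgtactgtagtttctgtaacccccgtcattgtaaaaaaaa
Mcoln1: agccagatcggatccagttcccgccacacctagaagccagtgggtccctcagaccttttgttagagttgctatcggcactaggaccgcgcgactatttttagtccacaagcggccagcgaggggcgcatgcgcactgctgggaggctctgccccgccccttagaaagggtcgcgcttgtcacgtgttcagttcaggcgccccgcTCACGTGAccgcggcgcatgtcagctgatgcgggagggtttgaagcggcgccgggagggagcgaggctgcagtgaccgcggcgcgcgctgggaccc
Gla: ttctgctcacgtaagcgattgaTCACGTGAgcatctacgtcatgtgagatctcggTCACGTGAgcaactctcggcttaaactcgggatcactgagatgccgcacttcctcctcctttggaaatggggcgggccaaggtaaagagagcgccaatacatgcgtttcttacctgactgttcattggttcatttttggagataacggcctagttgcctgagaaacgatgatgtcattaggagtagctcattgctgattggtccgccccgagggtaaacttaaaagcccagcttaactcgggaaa

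Ctsa and Gla each held 2 copies of the 8-letter core and Ctsd, Atp6v0d1, Atp6v1a and Mcoln1 held 1. In Atp6v0d1 the core spanned the RefSeq start itself, and in Ctsa it lay on either side of it. Lamp1 (chr8:13158911-13159210, plus strand), printed because it had the most copies of the 6-letter core among the members, held 4 of them within 61 bases before its start and no 8-letter core. Npc2 (chr12:84773063-84773362, minus strand), printed because it passed the test with library set in the model but not with treatment alone, held neither motif in this window. Capitals again mark the motif.
Lamp1: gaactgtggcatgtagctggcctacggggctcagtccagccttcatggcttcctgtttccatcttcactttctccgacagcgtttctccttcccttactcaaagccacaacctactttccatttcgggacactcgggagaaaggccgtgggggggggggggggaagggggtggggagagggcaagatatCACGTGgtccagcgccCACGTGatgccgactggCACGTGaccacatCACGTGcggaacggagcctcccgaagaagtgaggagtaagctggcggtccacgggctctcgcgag
Npc2: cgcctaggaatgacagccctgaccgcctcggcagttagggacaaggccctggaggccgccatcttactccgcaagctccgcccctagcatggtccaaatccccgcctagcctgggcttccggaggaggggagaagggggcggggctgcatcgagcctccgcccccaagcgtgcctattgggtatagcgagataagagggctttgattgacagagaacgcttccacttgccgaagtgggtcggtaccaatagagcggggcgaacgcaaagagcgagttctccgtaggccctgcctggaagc

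**Figure D1:**
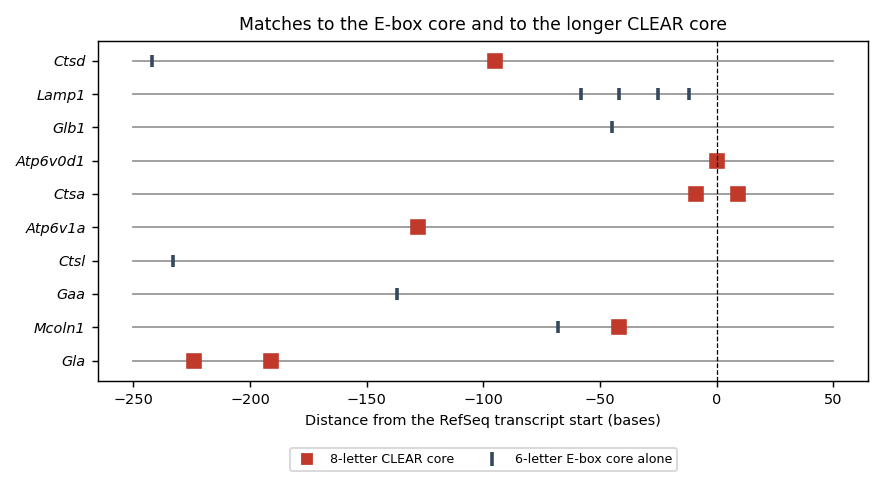
Motif matches in the promoters of the 10 members with at least 1 match, against distance from the RefSeq transcript start in bases (250 before to 50 after, dashed line at the start). Squares are 8-letter cores (6 members) and ticks are 6-letter cores alone. Matches of Lamp1, Ctsa and Atp6v0d1 lie close to the start, and those of Gla lie far upstream of it.

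Levels were compared between genes in the deposited FPKM, which are scaled by gene length; the sources used here do not give the length behind them. Averaged over the 8 libraries, Ctsd (the aspartic protease cathepsin D) stood at 283 ± 39.0 FPKM and Laptm5, a membrane protein of lysosomes in blood cells, at 247 ± 45.5 FPKM (SD, n = 8). The cysteine protease gene Ctsz followed at 150 ± 11.3 FPKM. The next were Psap at 73.7 FPKM, Lamp1 at 65.3 FPKM, Npc2 at 57.7 FPKM and Glb1 at 55.9 FPKM. The lowest levels were those of Gla at 4.42 FPKM and of the transcription factors Tfe3 at 4.28 ± 0.525 FPKM and Tfeb at 2.11 ± 0.221 FPKM.

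Most neighbours in this order were not separated by the spread over libraries. The ranges over 8 libraries overlapped in 27 of 30 pairs of neighbours. The 3 pairs with separate ranges were Laptm5 above Ctsz, Ctsz above Psap, and Tfe3 above Tfeb. Within each library taken alone, 8 of the 30 pairs kept the same order in all 8 libraries, among them Ctsd above Laptm5.

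**Figure D2:**
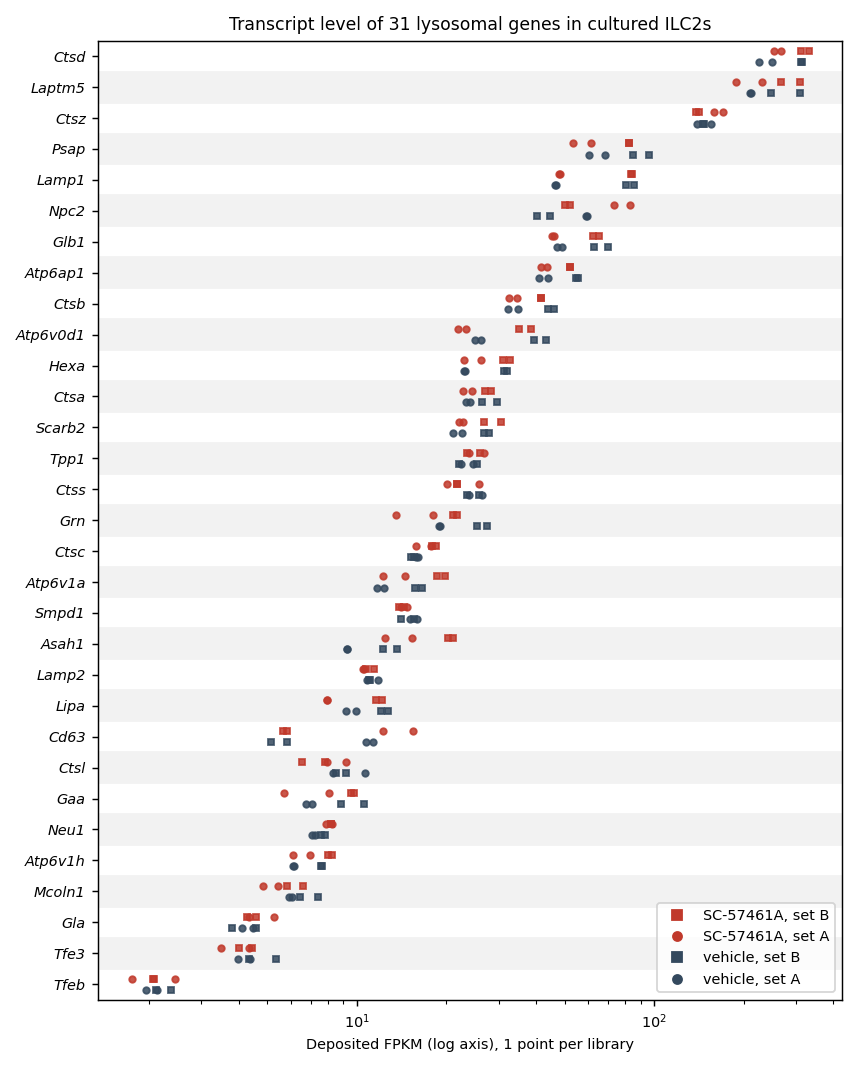
Deposited FPKM (log axis) of the 31 members in every library, in order of the mean over 8 libraries. Red points are SC-57461A and dark points vehicle libraries, squares are set B and circles set A. Ctsd (283 FPKM) and Laptm5 (247 FPKM) are at the top and Tfeb (2.11 FPKM) at the bottom, and for Lamp1 and Cd63 the squares and circles stand apart within both treatments.

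The effect of SC-57461A was tested in edgeR (quasi-likelihood) over all 15095 genes, once with treatment alone in the model and once with library set added as a term. With treatment alone, 0 of the 31 members were higher and 0 lower at a Benjamini-Hochberg adjusted p under 0.05, beside 0.272% of all tested genes higher and 0.0596% lower. One member, Asah1, had an unadjusted p under 0.05, which 6.68% of all genes had. DESeq2 with treatment alone called 1 member, Asah1, higher, beside 0.838% of the genes it gave an adjusted p, and 0 lower, beside 0.558%. Limma on log2(FPKM + 1) with treatment alone called 0 members, beside 0.285% of its genes higher and 0.0650% lower. With library set in the model, 2 members rose, Asah1 and Npc2, beside 2.83% of all tested genes, and 0 fell, beside 2.50% of all tested genes. In that model 6 members, 5 higher and 1 lower, had an unadjusted p under 0.05 (22.4% of all genes did). DESeq2 with library set called 3 members higher and 1 lower, beside 5.18% of its genes higher and 6.76% lower. Limma on FPKM with library set called 2 higher and 0 lower, beside 2.70% of its genes higher and 3.15% lower.

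The list as a whole was centred close to 0. The median log2 fold change of the 31 members was 0.023 in both models, beside 0.0094 with treatment alone and 0.0044 with library set over all genes tested. With library set, 17 members had a positive and 14 a negative log2 fold change, and the values ran from -0.25 (Grn) to 0.66 (Asah1). The 95% interval of the log2 fold change lay within -0.5 to 0.5 for 29 of the 31 members, beside 57.4% of all tested genes, and the 2 others were Asah1 and Npc2. With treatment alone it lay within those bounds for 23 members, beside 32.6% of all genes. The 8 others in that model were Asah1, Npc2, Grn, Lamp1, Cd63, Ctsl, Atp6v0d1 and Atp6v1a. Interval width also depends on count level, and the members were not compared with genes of similar counts.

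**Figure D3:**
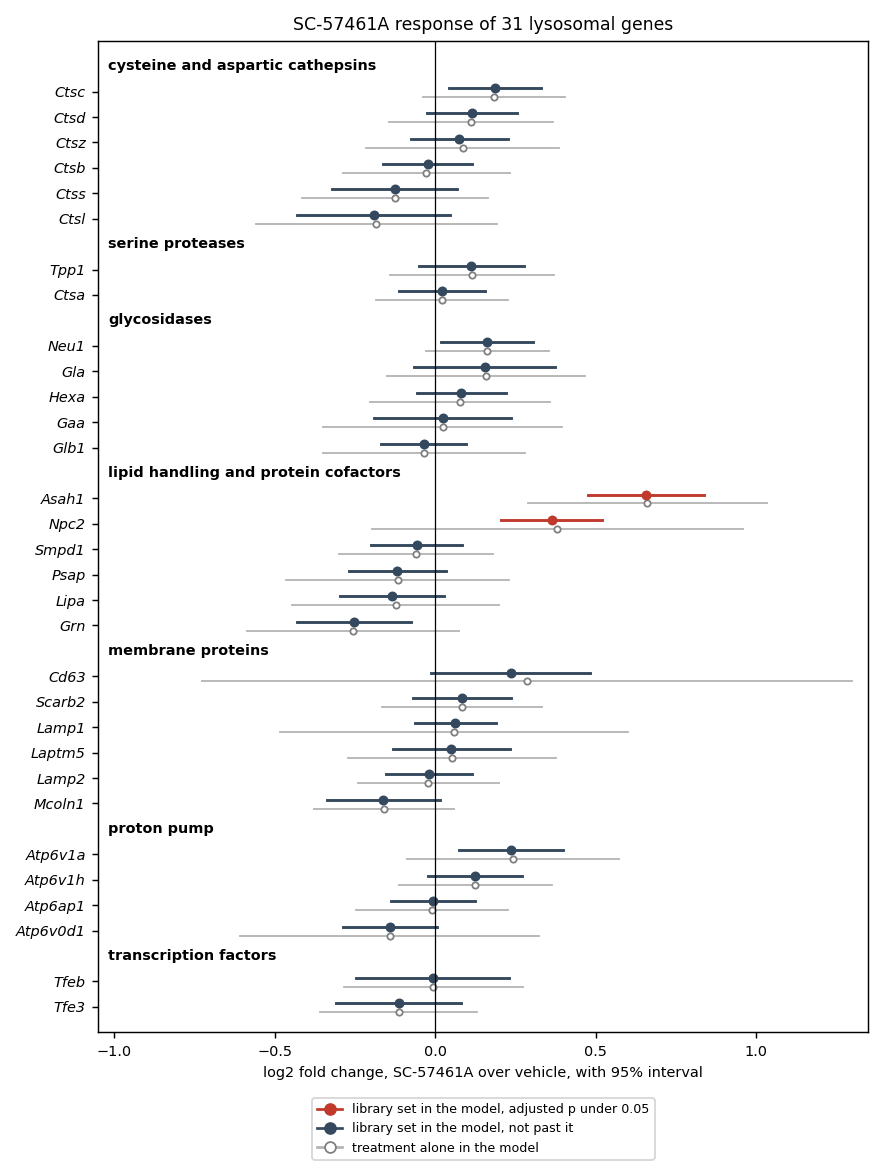
Log2 fold change of each member, SC-57461A over vehicle, with its 95% interval, grouped by role. Filled points come from the edgeR model with library set (red where the adjusted p is under 0.05) and open points from the model with treatment alone. The red points are Asah1 (0.66) and Npc2 (0.36), and the open-point interval of Cd63 is the widest.

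Lipid handling and protein cofactors held both members that rose. Asah1 encodes acid ceramidase, which splits ceramide into sphingosine and a fatty acid (mm10, chr8:41340197-41374773, minus strand). Asah1 had 76.1 and 75.5 CPM with SC-57461A in set B and 49.95 and 63.7 CPM with SC-57461A in set A, against 49.4 and 44.2 CPM with vehicle in set B and 37.2 and 36.8 CPM with vehicle in set A (CPM scaled by TMM factors, here and for all genes below). All 4 SC-57461A libraries were above all 4 vehicle libraries, by a narrow margin across the sets and a wide one within each.

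Asah1 averaged 66.3 ± 12.3 CPM with SC-57461A and 41.9 ± 6.03 CPM with vehicle (SD, n = 4 each). With library set in the edgeR model it rose 1.58-fold (95% interval 1.39 to 1.79, log2 0.66, SE 0.082, adjusted p = 0.000847). With treatment alone the fold was 1.58 as well, with an interval of 1.22 to 2.05 and an edgeR adjusted p of 0.290. The log2 fold change was 0.69 in set B alone (edgeR adjusted p = 0.0219) and 0.62 in set A alone (edgeR adjusted p = 0.111), and the difference of the effects between the sets had an edgeR unadjusted p of 0.654. The call with library set held in all 17 alternatives run, with adjusted p of 1.39e-10 to 0.00801.

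Npc2 encodes a small soluble protein that binds cholesterol in the lysosome lumen (mm10, chr12:84754560-84773112, minus strand). Npc2 had 175 and 186 CPM with SC-57461A in set B and 283 and 332 CPM with SC-57461A in set A, against 155 and 140 CPM with vehicle in set B and 227 and 227 CPM with vehicle in set A. Within each set the SC-57461A libraries were above the vehicle libraries, whereas across the sets the treatments overlapped, since set A was higher than set B under both treatments.

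Npc2 averaged 244 ± 76.2 CPM with SC-57461A and 187 ± 46.4 CPM with vehicle (SD, n = 4 each). With library set in the edgeR model it rose 1.29-fold (95% interval 1.15 to 1.43, log2 0.36, SE 0.072, adjusted p = 0.0153). With treatment alone the interval was 0.872 to 1.94 and the edgeR adjusted p 0.902. The log2 fold change was 0.29 in set B and 0.44 in set A. The call with library set held in 13 of 17 alternatives, and the edgeR adjusted p was 0.0730 without SC-57461A replicate 4, 0.0687 without vehicle replicate 1, 0.0884 without vehicle replicate 2 and 0.0576 without vehicle replicate 4. Within a set alone the edgeR adjusted p was 0.235 in set B and 0.170 in set A. In set A the summed epithelial markers were also higher with SC-57461A, at 49.3 to 58.7 CPM against 17.1 to 29.2 CPM with vehicle. In set B their sum was lower with SC-57461A, at 12.6 to 15.9 CPM against 18.2 to 20.6 CPM with vehicle. That set B sum was almost all Epcam, Krt18 and Lgals4, and 5 of the 10 markers had a count of 0 there. Muc2, which was called higher, had counts of 2 and 14 with SC-57461A and 0 and 0 with vehicle in set B. Summed macrophage markers overlapped between the treatments in set A and were under 1 CPM in set B. The part of these cell types in the values of Npc2 and Asah1 was not tested.

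Grn, Lipa, Psap and Smpd1 did not pass the test in either edgeR model. Grn, the precursor of the granulin peptides and a regulator of lysosomal function, had 78.0 and 83.3 CPM with SC-57461A in set B and 74.7 and 57.8 CPM with SC-57461A in set A, against 93.6 and 101 CPM with vehicle in set B and 77.9 and 78.0 CPM with vehicle in set A. Both SC-57461A libraries were below both vehicle libraries in each set, and across the sets the treatments overlapped. With library set, Grn had a log2 fold change of -0.25 (95% interval -0.43 to -0.076), with an edgeR adjusted p of 0.0956, and with treatment alone -0.26 with an edgeR adjusted p of 0.850. DESeq2 with library set gave an adjusted p of 0.0264, and edgeR without SC-57461A replicate 2 gave 0.0255.

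Lipa, the acid lipase that frees cholesterol and fatty acids from esters, had 36.8 and 39.7 CPM with SC-57461A in set B and 28.0 and 28.9 CPM with SC-57461A in set A, against 38.0 and 40.3 CPM with vehicle in set B and 34.9 and 32.1 CPM with vehicle in set A. The treatments overlapped in set B and were apart in set A. Its log2 fold change with library set was -0.13 (95% interval -0.30 to 0.027, edgeR adjusted p = 0.312), and with treatment alone -0.12 (edgeR adjusted p = 0.999). Psap, the precursor of the saposins that activate sphingolipid hydrolases, averaged 218 ± 33.0 CPM with SC-57461A and 236 ± 36.3 CPM with vehicle (SD, n = 4 each). Smpd1, acid sphingomyelinase, averaged 39.4 ± 2.89 CPM with SC-57461A and 41.0 ± 3.98 CPM with vehicle (SD, n = 4 each). The 95% intervals with library set were -0.27 to 0.034 for Psap and -0.20 to 0.084 for Smpd1 on the log2 scale.

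**Figure D4:**
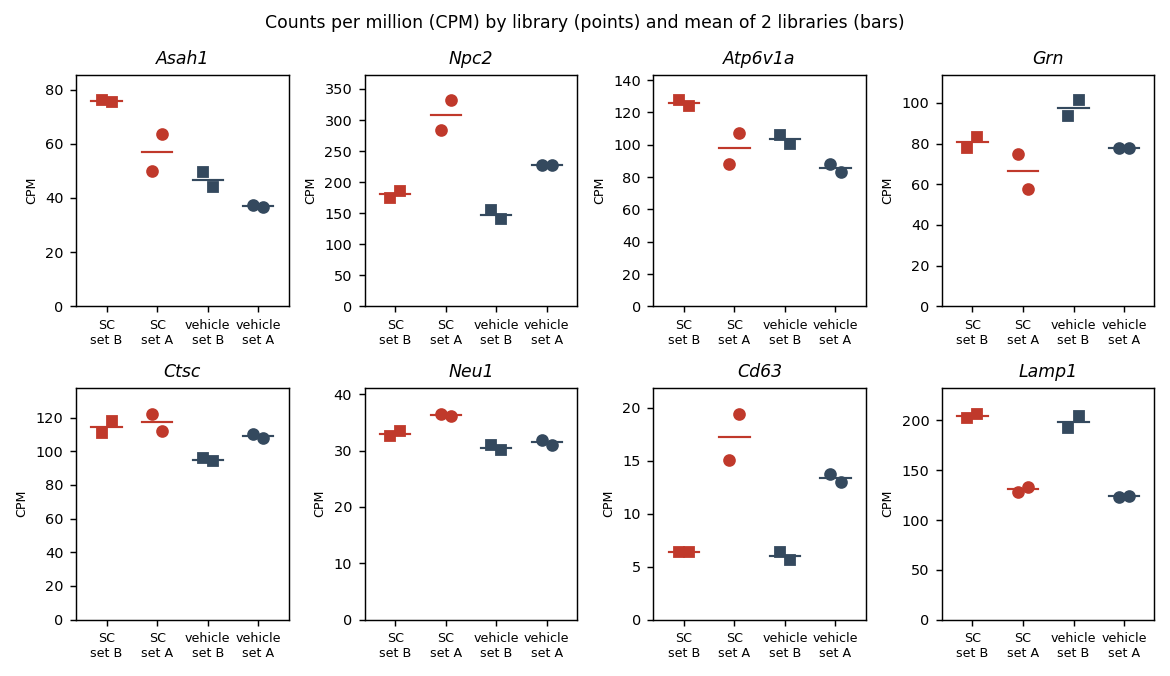
CPM of 8 members in every library (points) with the mean of the 2 libraries of each treatment and set (bars), SC-57461A left of vehicle; squares are set B and circles set A. Asah1 is higher with SC-57461A in both sets, and so is Npc2, although its set A libraries lie above its set B libraries. Lamp1 and Cd63 differ mostly between the sets, in opposite directions.

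None of the 6 cathepsin genes passed the test in either edgeR model. Ctsc, which encodes the dipeptidyl peptidase that activates granule serine proteases, had 111 and 118 CPM with SC-57461A in set B and 122 and 112 CPM with SC-57461A in set A, against 96.1 and 93.9 CPM with vehicle in set B and 110 and 108 CPM with vehicle in set A. All 4 SC-57461A libraries were above all 4 vehicle libraries, the lowest by less than 1 CPM. With library set, Ctsc had a log2 fold change of 0.19 (95% interval 0.044 to 0.33) with an edgeR adjusted p of 0.123, and with treatment alone 0.18 with an edgeR adjusted p of 0.831.

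Ctsd had 836 and 916 CPM with SC-57461A in set B and 757 and 825 CPM with SC-57461A in set A, against 845 and 836 CPM with vehicle in set B and 671 and 735 CPM with vehicle in set A. The treatments overlapped in set B and were apart in set A, and set B was higher than set A across the treatments. Its log2 fold change with library set was 0.11 (95% interval -0.025 to 0.25, edgeR adjusted p = 0.319), and the adjusted p with treatment alone was 0.993.

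Of the other cathepsin genes, Ctsb, a cysteine protease with carboxypeptidase activity, averaged 203 ± 14.5 CPM with SC-57461A and 207 ± 23.5 CPM with vehicle. Ctsz, a cysteine carboxypeptidase, averaged 252 ± 39.8 CPM with SC-57461A and 238 ± 18.4 CPM with vehicle. Ctss, the protease that trims the invariant chain of MHC class II in antigen-presenting cells, averaged 34.7 ± 5.33 CPM with SC-57461A and 37.9 ± 3.30 CPM with vehicle. For all of these the treatments overlapped. Ctsl, a cysteine endopeptidase, averaged 17.9 ± 3.48 CPM with SC-57461A and 20.3 ± 3.01 CPM with vehicle (SD, n = 4 each, for all of these genes), and its 95% interval with library set, -0.43 to 0.046 on the log2 scale, was the widest among the cathepsins.

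Exons of Ctsb overlap those of Fdft1, the squalene synthase gene on the opposite strand, and the sources used here do not say whether strand was used in counting. Fdft1 averaged 123 ± 7.31 CPM with SC-57461A and 39.4 ± 1.31 CPM with vehicle (SD, n = 4 each), a log2 fold change of 1.64 with library set (edgeR adjusted p = 6.82e-08). If counting ignored strand, reads of this gene could have entered the Ctsb value. Exons of Ctsz overlap Nelfcd, those of Glb1 overlap Tmppe on the same strand, and those of Ctsd overlap the predicted gene Gm49369, so that these counts may share reads as well. A processed pseudogene, Cd63-ps, matched the longest Cd63 transcript at 98.5% identity and had at most 66 counts in a library. The predicted genes Gm47123 (977 aligned bases) and Gm49230 (395 aligned bases) matched the longest Ctsl transcript at 100% identity. Neither was in the deposited table, so Ctsl counts may share reads with them.

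The 2 serine protease genes did not pass the test in either edgeR model. Ctsa, the carboxypeptidase that protects Neu1 and Glb1 in a complex, averaged 138 ± 4.64 CPM with SC-57461A and 136 ± 8.39 CPM with vehicle. Tpp1, the tripeptidyl peptidase, averaged 100.01 ± 9.77 CPM with SC-57461A and 92.4 ± 8.06 CPM with vehicle (SD, n = 4 each, for both). The treatments overlapped for both genes. The 95% intervals with library set were -0.11 to 0.16 for Ctsa and -0.051 to 0.28 for Tpp1 on the log2 scale.

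None of the 5 glycosidase genes passed the test in either edgeR model. Neu1, the sialidase that removes terminal sialic acid from glycoproteins and glycolipids, had 32.5 and 33.5 CPM with SC-57461A in set B and 36.6 and 36.1 CPM with SC-57461A in set A, against 31.02 and 30.1 CPM with vehicle in set B and 32.0 and 30.9 CPM with vehicle in set A. All 4 SC-57461A libraries were above all 4 vehicle libraries, the lowest by less than 1 CPM. Neu1 thus had a log2 fold change with library set of 0.16 (95% interval 0.018 to 0.30) with an edgeR adjusted p of 0.174, and with treatment alone the adjusted p was 0.822.

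The other glycosidases degrade glycogen (Gaa), globotriaosylceramide (Gla), and galactose- or hexosamine-terminated glycans and gangliosides (Glb1 and Hexa). Gaa averaged 44.9 ± 7.87 CPM with SC-57461A and 44.2 ± 7.10 CPM with vehicle, and Gla 17.3 ± 2.59 CPM with SC-57461A and 15.5 ± 1.69 CPM with vehicle. Glb1 averaged 148 ± 19.5 CPM with SC-57461A and 152 ± 20.7 CPM with vehicle, and Hexa 59.8 ± 5.83 CPM with SC-57461A and 56.7 ± 7.09 CPM with vehicle (SD, n = 4 each, for each gene). The treatments overlapped for each. Among the 31 members, Asah1, Ctsc and Neu1 were the 3 with all SC-57461A libraries above all vehicle libraries, a pattern that 3.01% of all tested genes had, and 0 members had the opposite pattern, which 3.13% of genes had. Within both sets, 4 members had both SC-57461A libraries above both vehicle libraries (these 3 and Npc2), beside 9.63% of genes, and 2 had them below (Grn and Atp6v0d1), beside 10.3% of genes.

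None of the 6 membrane protein genes passed the test in either edgeR model. Cd63 encodes a tetraspanin of late endosomes and secretory granules. Cd63 had 6.44 and 6.39 CPM with SC-57461A in set B and 15.03 and 19.5 CPM with SC-57461A in set A, against 6.40 and 5.63 CPM with vehicle in set B and 13.8 and 13.0 CPM with vehicle in set A. Set A was above set B under both treatments. The treatments overlapped in set B, and in set A the SC-57461A libraries lay above the vehicle libraries. With library set its log2 fold change was 0.23 (95% interval -0.014 to 0.48, edgeR adjusted p = 0.252).

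Lamp1, a major glycoprotein of the lysosomal membrane, had 203 and 207 CPM with SC-57461A in set B and 128 and 133 CPM with SC-57461A in set A, against 192 and 205 CPM with vehicle in set B and 123 and 124 CPM with vehicle in set A. Here set B was above set A under both treatments. The treatments overlapped in set B, and in set A the SC-57461A libraries lay above the vehicle libraries. Its log2 fold change with library set was 0.062 (95% interval -0.064 to 0.19, edgeR adjusted p = 0.577).

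Mcoln1, the calcium-permeable channel TRPML1, had 23.0 and 21.0 CPM with SC-57461A in set B and 21.0 and 19.3 CPM with SC-57461A in set A, against 22.3 and 25.8 CPM with vehicle in set B and 22.9 and 23.3 CPM with vehicle in set A. The treatments overlapped in set B and were apart in set A. Its log2 fold change with library set was -0.16 (95% interval -0.34 to 0.013, edgeR adjusted p = 0.261). Laptm5 averaged 1070 ± 155 CPM with SC-57461A and 1032 ± 147 CPM with vehicle (SD, n = 4 each). Lamp2, which also serves chaperone-mediated autophagy, averaged 118 ± 4.39 CPM with SC-57461A and 120 ± 9.89 CPM with vehicle (SD, n = 4 each). Scarb2, the receptor that carries glucocerebrosidase to lysosomes, averaged 61.2 ± 6.69 CPM with SC-57461A and 57.8 ± 4.29 CPM with vehicle (SD, n = 4 each), and the treatments overlapped for all of these genes.

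None of the 4 proton pump genes passed the test in either edgeR model, and the 2 with the largest changes went in opposite directions. Atp6v1a encodes the catalytic subunit of the cytosolic part of the pump. Atp6v1a had 127 and 124 CPM with SC-57461A in set B and 87.9 and 108 CPM with SC-57461A in set A, against 106 and 101 CPM with vehicle in set B and 88.4 and 82.9 CPM with vehicle in set A. The treatments were apart in set B and overlapped in set A. The log2 fold change with library set was 0.24 (95% interval 0.075 to 0.40) with an edgeR adjusted p of 0.0898, and with treatment alone the adjusted p was 0.871. DESeq2 with library set gave an adjusted p of 0.0390, and edgeR without SC-57461A replicate 2 gave 0.0355.

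Atp6v0d1, a subunit of the membrane-embedded part, had 73.8 and 69.2 CPM with SC-57461A in set B and 46.6 and 51.1 CPM with SC-57461A in set A, against 75.1 and 82.7 CPM with vehicle in set B and 55.3 and 52.4 CPM with vehicle in set A. The SC-57461A libraries were below the vehicle libraries in each set, and the sets were further apart than the treatments. Its log2 fold change with library set was -0.14 (95% interval -0.29 to 0.0040, edgeR adjusted p = 0.236).

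Atp6v1h, a regulatory subunit, had 86.0 and 85.8 CPM with SC-57461A in set B and 70.3 and 83.1 CPM with SC-57461A in set A, against 79.0 and 78.8 CPM with vehicle in set B and 70.2 and 70.4 CPM with vehicle in set A. Its SC-57461A libraries were above the vehicle libraries in set B and overlapped them in set A. The log2 fold change with library set was 0.12 (95% interval -0.021 to 0.27, edgeR adjusted p = 0.299). Atp6ap1, an accessory protein of pump assembly, averaged 163 ± 8.98 CPM with SC-57461A and 164 ± 15.9 CPM with vehicle (SD, n = 4 each), with a 95% interval of -0.14 to 0.12 on the log2 scale.

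The transcription factor genes did not pass the test in either edgeR model. Tfeb had 12.5 and 13.0 CPM with SC-57461A in set B and 16.6 and 12.3 CPM with SC-57461A in set A, against 12.8 and 14.4 CPM with vehicle in set B and 13.2 and 14.2 CPM with vehicle in set A. Tfe3 had 43.9 and 40.8 CPM with SC-57461A in set B and 47.9 and 39.7 CPM with SC-57461A in set A, against 42.7 and 52.5 CPM with vehicle in set B and 43.5 and 47.7 CPM with vehicle in set A. For both genes the treatments overlapped within each set. The log2 fold change with library set was -0.0087 for Tfeb (95% interval -0.25 to 0.23, edgeR adjusted p = 0.974) and -0.11 for Tfe3 (95% interval -0.31 to 0.080, edgeR adjusted p = 0.490). These are transcript levels, and entry of the proteins into the nucleus was not measured.

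The members with the 8-letter core in a promoter were compared with those without it as a description. With library set in the model, the 6 members with the core had log2 fold changes of -0.16 to 0.24 with a median of 0.068, and the 22 members with a promoter entry but without the core had -0.25 to 0.36 with a median of 0.0081. Neither Asah1, which had no promoter entry, nor Npc2 was among the 6.

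The treatment effect was also estimated in each set on its own. The median log2 fold change of the 31 members was 0.015 in set B and 0.049 in set A, beside 0.0015 and 0.00016 over all genes tested. The test of a difference between the sets in the effect of SC-57461A called 0 members, beside 0.00662% of all genes, and 0 members had an unadjusted p under 0.05, beside 4.96% of all genes (edgeR). Cd63 had a log2 fold change of 0.089 in set B and 0.37 in set A, and Ctsz -0.045 in set B and 0.20 in set A, with unadjusted p of 0.247 and 0.0913 for the differences (edgeR, 2 libraries per treatment and set).

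**Figure D5:**
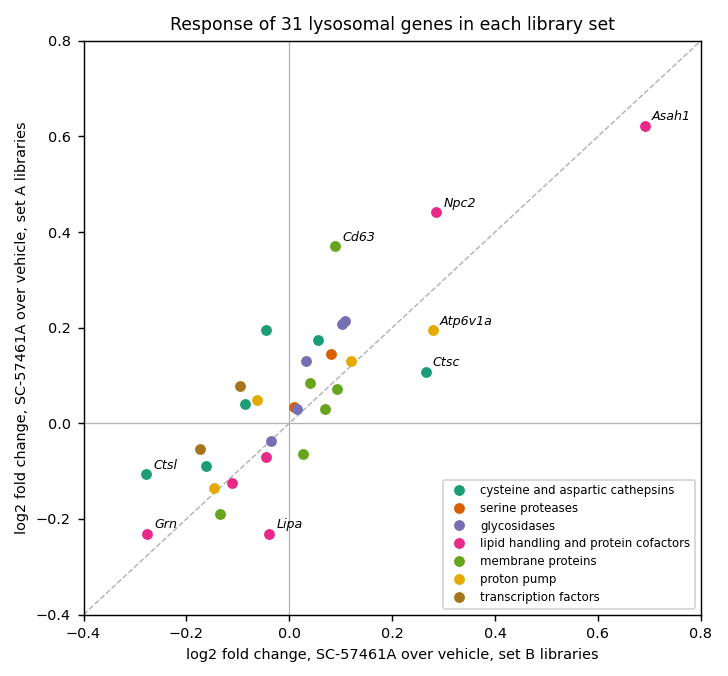
Log2 fold change of SC-57461A over vehicle in set B libraries (horizontal) and in set A libraries (vertical) for the 31 members, coloured by role, with a dashed line where the sets would be equal. Asah1 (0.69 in set B and 0.62 in set A) and Npc2 (0.29 and 0.44) lie apart from the cloud around 0.

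For 26 of the 31 members the log2 difference between the sets was larger in size than that between the treatments, as it was for 73.4% of all tested genes. The sets are not groups of the study and were read from these data, so their difference is given with no test. All 4 libraries of set B were above all 4 of set A for 10 members, beside 20.7% of all tested genes, and below them for 5 members, beside 23.3%. The 10 were Lamp1, Atp6v0d1, Atp6ap1, Scarb2, Ctsb, Ctsd, Glb1, Hexa, Lipa and Psap, with log2 differences, set B minus set A, of 0.66 for Lamp1 and 0.55 for Atp6v0d1 at the top. The 5 were Cd63 (-1.29), Npc2 (-0.70), Ctsz (-0.28), Smpd1 (-0.20) and Lamp2 (-0.13).

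The share of counts on genes with short transcripts differed between the sets. The contrast was therefore repeated with a spline of each library on transcript length. The difference was then -1.15 for Cd63, -0.61 for Npc2, 0.93 for Lamp1 and 0.94 for Atp6v0d1, while those of Ctsz and Smpd1 changed sign to 0.15 and 0.037. The sign also changed for Ctss (-0.20 to 0.24), Tfeb (-0.091 to 0.16) and Tfe3 (0.0082 to -0.037). Together the members took 0.492% to 0.501% of all counts in SC-57461A and 0.470% to 0.504% in vehicle libraries of set B, and 0.406% to 0.429% in SC-57461A and 0.394% to 0.410% in vehicle libraries of set A. Summed markers of some other cell types were higher in set A, and those of others overlapped between the sets. The summed level was 0.293 to 0.739 CPM in set B and 19.8 to 38.5 CPM in set A for macrophages and monocytes, 1.29 to 2.62 CPM in set B and 7.80 to 10.6 CPM in set A for neutrophils, and 0.492 to 1.22 CPM in set B and 3.12 to 14.1 CPM in set A for fibroblasts. T cell markers stood at 9.91 to 13.6 CPM in set B and 14.4 to 16.2 CPM in set A. Most of this sum was Cd3g, at 8.45 to 11.8 CPM in set B and 12.5 to 14.5 CPM in set A. Cd3d, Cd3e and Cd4 overlapped between the sets. The sum of the ILC2 markers was higher in set A as well, but single ILC2 markers went both ways. Il13 had 3400 to 4005 CPM in set B and 5727 to 6352 CPM in set A. Il7r, Il1rl1, Il17rb and Ptprc were instead higher in every set B library than in any set A library. Summed markers of epithelial, endothelial, dendritic, B and mast cells overlapped between the sets. Endothelial markers had 76.7 to 85.2 CPM in set B and 69.0 to 77.3 CPM in set A. In set B this sum was Pecam1 alone, and Pecam1 had 61.1 to 71.9 CPM in set A. The 4 other endothelial markers (Cdh5, Kdr, Vwf and Cldn5) had a count of 0 in set B and were detected in every set A library. Cdh5, for example, had 1.62 to 3.48 CPM in set A. B cell markers had 14.6 to 17.6 CPM in set B and 14.4 to 16.7 CPM in set A. Most of that was Cd79b, at 14.3 to 17.5 CPM in set B and 13.5 to 15.9 CPM in set A. Of the 10 epithelial markers, 5 (Krt8, Krt19, Krt20, Cdh1 and Tff3) had a count of 0 in set B. The part of these cell types in the set differences of the members was not tested.

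Other genes of the lysosomal system were counted from lists that do not include the members. With treatment alone, edgeR called 0 genes of these lists, beside 0.272% of all tested genes higher and 0.0596% lower. In that fit 7 had an unadjusted p under 0.05, beside 6.68% of all genes. DESeq2 called 1 higher (Gabarapl1) and 0 lower, beside 0.838% and 0.558% of its genes. Limma on FPKM called 0, beside 0.285% of its genes higher and 0.0650% lower. Of 33 other hydrolases and cofactors, 32 were tested. With library set, edgeR called 1 higher (Pcyox1) and 1 lower (Lgmn), beside 2.83% and 2.50% of all tested genes. In that model 10 had an unadjusted p under 0.05, beside 22.4% of all genes. In this list the model with library set gave 1 higher and 2 lower genes in DESeq2, beside 5.18% and 6.76% of its genes. In limma on FPKM it gave 0 higher and 2 lower, beside 2.70% and 3.15% of its genes. Lgmn, the asparaginyl endopeptidase legumain, averaged 321 ± 43.9 CPM with SC-57461A and 401 ± 51.7 CPM with vehicle (SD, n = 4 each), and fell by 0.32 on the log2 scale (edgeR adjusted p = 0.0114 with library set). Its adjusted p was 0.0602 without SC-57461A replicate 4. Pcyox1, which breaks down prenylcysteine, averaged 18.5 ± 2.68 CPM with SC-57461A and 14.0 ± 1.74 CPM with vehicle (SD, n = 4 each), a log2 fold change of 0.40 (edgeR adjusted p = 0.0386 with library set). That call held in 6 of 17 alternatives, and leaving out any library but SC-57461A replicate 3 ended it, with adjusted p of 0.0520 to 0.153.

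In 4 further lists no gene was called with library set by edgeR, which called 2.83% of all tested genes higher and 2.50% lower. An unadjusted p under 0.05 in that model was seen for 22.4% of all genes. The lists were 24 membrane proteins and transporters (6 at an unadjusted p under 0.05), 17 tested of 18 other pump subunits (4), 20 genes that deliver hydrolases to lysosomes (1) and 18 tested of 19 relatives of Tfeb and mTORC1 scaffold genes (2). DESeq2 with library set called 1 lower among the membrane proteins and 2 higher among the pump subunits, and 0 in the other 2 lists. It called 5.18% of its genes higher and 6.76% lower. Limma on FPKM with library set called 0 in all of these lists, beside 2.70% of its genes higher and 3.15% lower. The medians of log2 fold changes ran from -0.029 for the delivery genes to 0.080 for the membrane proteins.

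Of 26 autophagy genes, 1 rose and 1 fell with library set in the edgeR model, beside 2.83% and 2.50% of all tested genes. In that model 7 had an unadjusted p under 0.05, beside 22.4% of all genes. The same model gave 1 higher and 4 lower genes in DESeq2, beside 5.18% and 6.76% of its genes. In limma on FPKM it gave 1 higher and 1 lower, beside 2.70% and 3.15% of its genes. Gabarapl1, an LC3-like protein that is conjugated to autophagosome membranes, had 28.2 and 30.3 CPM with SC-57461A in set B and 33.1 and 39.0 CPM with SC-57461A in set A, against 20.8 and 17.5 CPM with vehicle in set B and 21.3 and 21.1 CPM with vehicle in set A. All 4 SC-57461A libraries were above all 4 vehicle libraries. It rose by 0.69 on the log2 scale (SE 0.087, adjusted p = 0.000907 with library set and 0.105 with treatment alone, edgeR), and the call with library set held in all 17 alternatives. Optn, the autophagy receptor optineurin, averaged 17.2 ± 1.16 CPM with SC-57461A and 22.8 ± 3.72 CPM with vehicle (SD, n = 4 each) and fell by 0.40 on the log2 scale (edgeR adjusted p = 0.0280 with library set). All 4 SC-57461A libraries were below all 4 vehicle libraries. The edgeR adjusted p was 0.0879, 0.0550 and 0.123 without SC-57461A replicates 1, 3 and 4, and 0.0915 and 0.0940 without vehicle replicates 2 and 4.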

How the data were processed

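RNA-seq of total RNA was deposited as 1 table of 8 libraries, with 1 count column and 1 FPKM column per library, per the file headers. FPKM were computed by the authors and used here for levels between genes. Reads had been processed with cutadapt 4.7 and FastQC on build mm10, per the submitters' processing notes. No source used here gives the aligner, counter, annotation or strand setting. Of 25367 genes, 24998 received a symbol from GENCODE M21 by identifier, and 0 columns were left without a sample. The floor of 3 counts that a 0 allows is 0.0422 to 0.0633 CPM (counting error only).

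Deposited counts were filtered with filterByExpr (15095 genes), scaled by TMM and tested in edgeR 4.0.16 under R 4.3.3 (quasi-likelihood, two-sided, Benjamini-Hochberg over all genes tested, threshold 0.05), with treatment alone and with library set added. Intervals of 95% come from the same fits. The 28 pairs of libraries differed by 16.7 to 583 chi-square per degree of freedom, so none was a repeat deposit. Library sets were read from the largest gap in summed FPKM. Alternatives were other scalings and filters, DESeq2 1.42.0, limma 3.58.1 on log2(FPKM + 1) or log2(FPKM + 0.1), the replicate number as a block, each set alone, a length spline with 5 degrees of freedom, and leaving out each library. The fits were tested on simulated data. Copies of members were sought with BLAST 2.17.0 at 95% identity or more; tables and plots were made with Python 3.11.15, pandas 2.3.3 and matplotlib 3.10.9.

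The members, lists and tests were chosen with earlier results of these data known. Values in every library are given for members past the threshold in either model, for those next in unadjusted p with library set up to 12 members, and for Tfeb, Tfe3, Lamp1 and Ctsd. Of each other list, called genes are named (up to 4). Promoters are those with the 8-letter core (up to 6 by FPKM); Lamp1 and Npc2 were added after their values were seen, as was the length spline of the set difference.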

Additional observations from a re-analysis of the deposited data

Results flagged for a closer look

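Among 62 groups of 4 libraries (31 members in 2 treatments), 1 held a library that stood apart by Dixon's ratio of gap to range at the 95% level, where chance gives about 1 in 20 groups. Ctss, the cathepsin S gene, had 42.7 CPM in SC-57461A replicate 3, whereas the other 3 SC-57461A libraries had 31.4 to 32.5 CPM (ratio 0.907). The vehicle libraries had 33.9 to 41.9 CPM.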

How the results depend on the processing

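With treatment alone in the edgeR model, 0 members were higher. DESeq2 called 1, adding library set as a term called 2, and set B alone called 1, while leaving out each library in turn left 0. Over all tested genes, the share called higher was 0.272% with treatment alone and 2.83% with library set added. In DESeq2 with treatment alone it was 0.838% of its genes. The median log2 fold change of the members kept to -0.014 to 0.065 over 20 alternatives. With library set, leaving out each library in turn gave 1 to 3 higher and 0 to 1 lower members, and DESeq2 gave 1 lower. Tfeb, Lamp1 and Cd63 changed sign among the 15 members given library by library. With treatment alone, Tfeb was 0.079 in set A alone and -0.12 to 0.032 over the left-out libraries, Lamp1 was -0.061 to 0.19 and Cd63 -0.070 to 0.50. With library set, Tfeb was -0.13 to 0.048. The cause of these changes was not tested. The replicate number as a block called 0 members with treatment alone and 2 with library set. Same-numbered libraries had correlations of -0.587, 0.635, -0.561 and 0.608 for their deviations from the treatment means, and 2 of 4 numbers matched best with themselves. Replicates 2 and 4 have both libraries in the same set, and replicates 1 and 3 have them in opposite sets. The set difference was not removed before this check, so it cannot decide whether the numbers pair the libraries. With 4 libraries per treatment in 2 sets, treatment-only intervals reached beyond 0.5 on the log2 scale for 8 members.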
